A study of Mus musculus with 31 samples.

Results

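Glucocorticoid hormone acts on the brain through 2 nuclear receptors, and the genes described here are those receptors, Nr3c1 and Nr3c2, with 8 genes known to respond to them, Tsc22d3, Fkbp5, Sgk1, Errfi1, Cdkn1a, Zbtb16, Plin4 and Sult1a1. They were picked by symbol and are 10 of the 48795 genes in the count table. All 10 were protein-coding genes, and all 10 were among the 19529 genes that passed the filter on low counts.

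The series measured total RNA of homogenised mouse brain in 31 libraries, 13 of control mice and 18 of mice exposed during development to deltamethrin, an insecticide of the pyrethroid class, which slows the closing of nerve sodium channels. The labels name the tissue and the agent only. They give no strain, dose, age, litter or hour of collection, and they do not say that each library is a separate animal, so the p-values measure the spread between these libraries, which may be partly technical. The male gene Ddx3y had 388 to 2190 counts per library while Xist, which marks the inactive X chromosome of females, had at most 6. In bulk tissue, fewer cells of a type and less RNA per cell cannot be told apart.

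Corticosterone, the main glucocorticoid of mice, enters cells and binds receptors that chaperones hold in the cytoplasm. The bound receptors move to the nucleus, where they sit on glucocorticoid response elements and raise or lower transcription of nearby genes. Release of the hormone follows the daily cycle and climbs further under stress, and its target genes are widely used to read out either.

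Total counts ran from 17570311 to 38680621 per library, with a median of 30662621. The share of counts on the mitochondrial rRNA genes mt-Rnr1 and mt-Rnr2 ranged from 7.32% to 40.2%, and control replicate 2 had both the lowest total and the highest share. The 7 neuron markers summed to between 2225 and 4306 CPM (counts relative to the library total, scaled with edgeR's TMM factors), while the 4 adrenal markers summed to at most 0.198 CPM. In edgeR's quasi-likelihood test of deltamethrin against control, 0 of 19529 genes passed a Benjamini-Hochberg adjusted p of 0.05 (0%). At an unadjusted p of 0.05 the test called 853 genes (4.37%), 462 lower (2.37%) and 391 higher (2%) in deltamethrin libraries, and DESeq2 called 986 unadjusted and 0 adjusted. That split depended on the scaling, with 172 lower and 541 higher without scaling factors and 329 lower and 514 higher with upper quartile factors.

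Promoter windows of 250 bases before each annotated start were read from the RefSeq table of build GRCm38.p6 for 8 of the 10 genes. A full glucocorticoid response element, searched on both strands as GNACANNNTGTNC, occurred in 127 of 32851 windows (0.387%), and its strict palindrome GAACANNNTGTTC occurred in 13 (0.0396%). The single arm AGAACA, read on either strand, occurred in 16.1% of windows. The E-box CACGTG, which the clock activators bind, occurred in 6.02%. Among the 8 matched genes only Sgk1 held the full element, and that match was also the strict palindrome. It lay 188 bases before the start in 1 of the 6 Sgk1 windows. Counted per gene, 0.440% of 27025 genes held the full element, and 3 of 17 other glucocorticoid-responsive genes did. Of the 8 matched genes, 3 held a single arm and 2 an E-box, beside 18.2% and 6.86% of all genes. The sequences below are a selection from these windows. They show the full element of Sgk1, the single arm upstream of Tsc22d3, and the E-boxes of Fkbp5 and of Per1, a clock gene that glucocorticoids also raise. Single arms of Sult1a1 and of other Sgk1 windows are not shown, and no Tsc22d3 window held an E-box. For Tsc22d3 and Per1 the windows at their other annotated starts held none of these motifs. Capitals mark the matches, each line runs 5′ to 3′ on the gene's strand, and bases lying in annotated exons were left out. In the Sgk1 window an E-box and a single arm overlap near the 5′ end.
Sgk1, chr10:21993640-21993889, plus strand: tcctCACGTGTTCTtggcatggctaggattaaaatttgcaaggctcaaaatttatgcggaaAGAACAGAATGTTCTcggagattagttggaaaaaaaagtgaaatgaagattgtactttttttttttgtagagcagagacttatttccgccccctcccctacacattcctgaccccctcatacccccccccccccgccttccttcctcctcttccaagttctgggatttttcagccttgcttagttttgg
Tsc22d3, chrX:140600660-140600772, minus strand: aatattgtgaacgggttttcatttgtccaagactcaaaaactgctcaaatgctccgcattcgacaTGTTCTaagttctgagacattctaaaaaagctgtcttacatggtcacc
Fkbp5, chr17:28486150-28486399, minus strand: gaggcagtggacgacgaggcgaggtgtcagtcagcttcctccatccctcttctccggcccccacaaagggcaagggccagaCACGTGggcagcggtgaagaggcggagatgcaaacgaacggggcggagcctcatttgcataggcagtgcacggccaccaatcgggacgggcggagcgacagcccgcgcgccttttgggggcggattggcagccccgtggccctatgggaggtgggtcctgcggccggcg
Per1, chr11:69098699-69098947, plus strand: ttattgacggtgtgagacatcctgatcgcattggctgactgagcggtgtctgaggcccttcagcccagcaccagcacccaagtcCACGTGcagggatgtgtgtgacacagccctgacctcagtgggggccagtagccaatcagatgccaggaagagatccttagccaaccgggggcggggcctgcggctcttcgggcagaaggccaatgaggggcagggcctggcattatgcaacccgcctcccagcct
These matches describe letters in short windows and do not show binding, and response elements often lie far from the start.

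Set per kilobase of exon, the 10 genes spanned a wide range of levels over the 31 libraries. Nr3c1 stood at 12.8 ± 1.69 CPM per kilobase (mean ± SD, n = 31) and Tsc22d3 at 12.6 ± 1.87, and these top 2 did not separate, since Nr3c1 was above Tsc22d3 in 17 of 31 libraries. Sgk1 followed at 10.05 ± 2.36 and lay below Tsc22d3 in 27 libraries. Nr3c2, at 8.998 ± 1.05 CPM per kilobase, lay below Sgk1 in 21 libraries, so those neighbours overlapped. Zbtb16 (6.61 ± 1.39) lay below Nr3c2 in 30 libraries, and Errfi1 (5.98 ± 1.08) lay below Zbtb16 in 22. Fkbp5 (2.51 ± 0.300), Sult1a1 (2.42 ± 0.554) and Cdkn1a (2.42 ± 0.658) overlapped one another, and all 31 libraries had Errfi1 above Fkbp5. Plin4, at 0.686 ± 0.372 CPM per kilobase, was below Cdkn1a in every library.

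The genes also differed in how much they varied between libraries. Plin4 had the widest spread of the 10, with a coefficient of variation of 54.3%, above 98.1% of the 15718 genes with a mean of at least 1 CPM. Cdkn1a (27.2%), Sgk1 (23.5%), Sult1a1 (22.9%) and Zbtb16 (21.1%) were intermediate. The receptors Nr3c1 (13.2%) and Nr3c2 (11.6%) and the target Fkbp5 (11.96%) varied least.

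**Figure D1:**
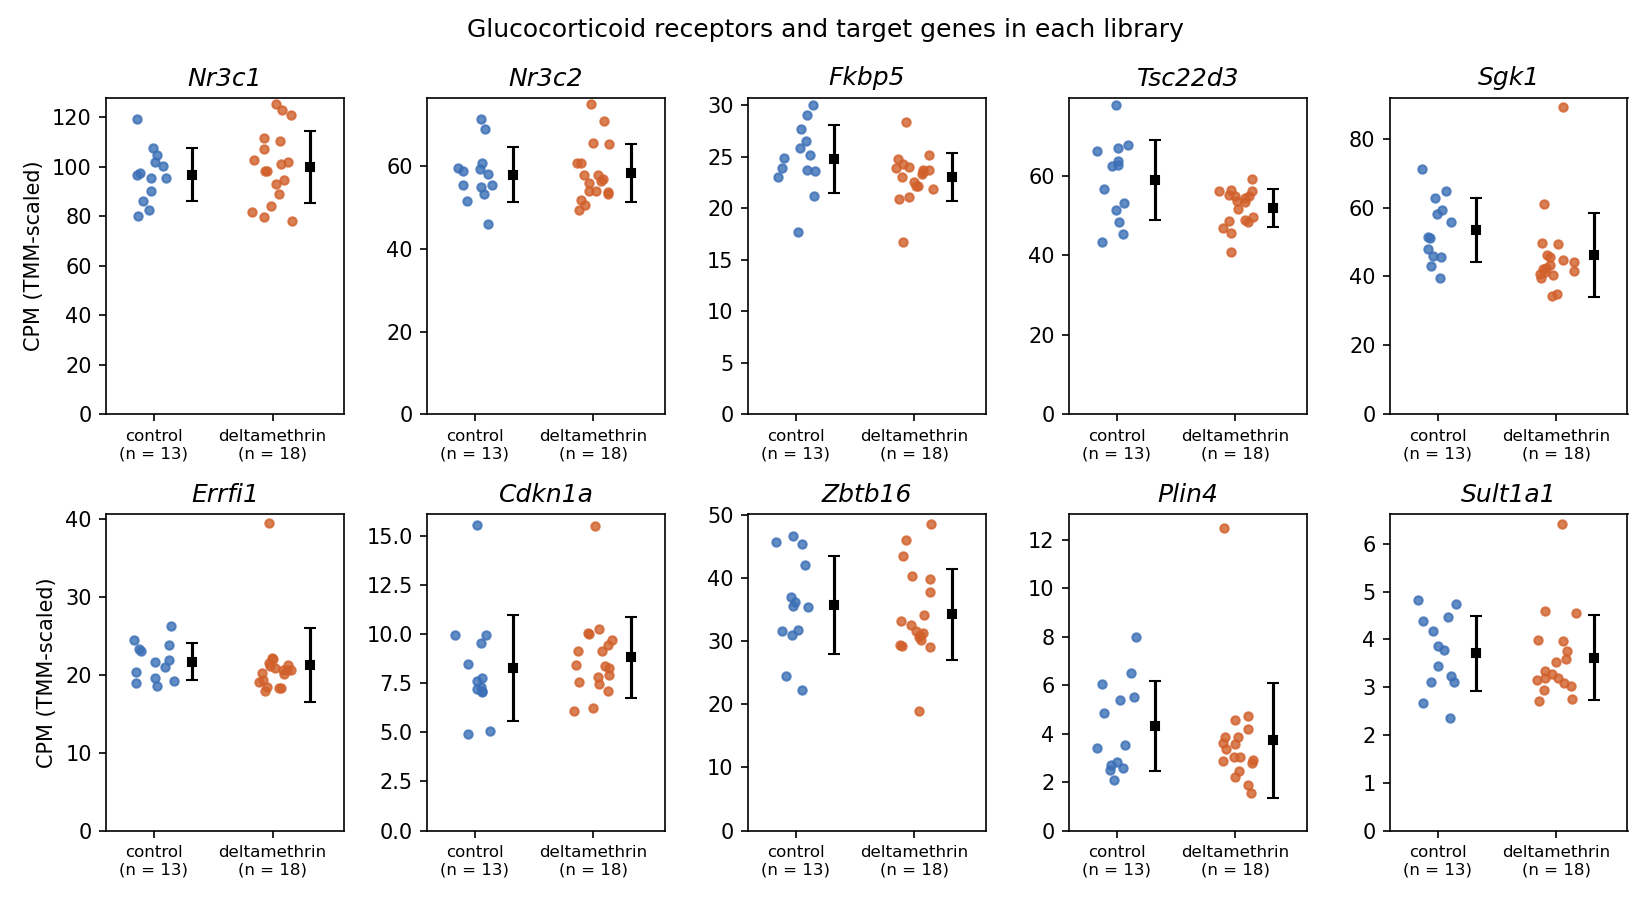
Level of each gene in every library, in TMM-scaled CPM on axes that start at 0; points are libraries, squares and bars are the mean ± SD of 13 control and 18 deltamethrin libraries. The groups overlap for all 10 genes, and Tsc22d3 alone has every deltamethrin library below the control median of 62.5 CPM.

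For neither receptor was a difference between the groups beyond the spread of the libraries detected. Nr3c1 (ENSMUSG00000024431, chromosome 18, 39410545 to 39519421, minus strand, GRCm38) encodes the glucocorticoid receptor, which has the lower affinity and fills at stress levels of hormone. Its lowest, median and highest values were 80.2, 96.5 and 119 CPM in control and 78.2, 99.6 and 125 CPM in deltamethrin libraries. The ranges nearly coincided, and the log2 fold change, deltamethrin over control, was 0.049 ± 0.071 (SE) with a 95% interval of -0.090 to 0.19 and an unadjusted p of 0.492. Nr3c2 (ENSMUSG00000031618, chromosome 8, 76899442 to 77245012, plus strand) encodes the mineralocorticoid receptor, which binds corticosterone tightly and is largely occupied at resting levels. It ranged from 46.0 over a median of 58.2 to 71.6 CPM in control and from 49.5 over 56.7 to 75.1 CPM in deltamethrin libraries. Its log2 fold change was 0.0098 ± 0.063, with an interval of -0.11 to 0.13 and an unadjusted p of 0.877. The intervals cover differences of either sign up to about these bounds. An lncRNA on the opposite strand of Nr3c2, Gm10649, had a median of 62 counts, and whether the counting used strand is not given in the sources used here.

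The receptors varied together over all 31 libraries, although the relation had no adjusted call within control. Nr3c1 and Nr3c2 correlated over the 31 libraries with Pearson's r of 0.643 (permutation p = 8e-05, adjusted 0.00315 over 45 gene pairs) and Spearman's rho of 0.642 (p = 0.0002, adjusted 0.0045). The r was 0.606 without the 2 libraries farthest from the median of Nr3c1. It was 0.357 within control (adjusted permutation p = 0.332) and 0.808 within deltamethrin libraries (adjusted permutation p = 0.00225). Other genes were closer to each receptor, up to a rho of 0.963 for Nr3c1 and 0.851 for Nr3c2. Nr3c1 also correlated weakly with the mitochondrial rRNA share (r = -0.451, permutation p = 0.0110, adjusted 0.0402 over 40 gene and library-measure pairs; rho = -0.376, p = 0.0375, adjusted 0.115), with r of -0.513 with the 2 farthest left out, -0.208 within control and -0.643 within deltamethrin. Of all 19529 genes tested, 50.5% correlated with that share at least as strongly in size.

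Of the 8 target genes, 7 had a negative log2 fold change, against 49.5% of all genes tested, and their median was -0.085, against 0.0014. Among the 10 genes, 2 were lower in deltamethrin at an unadjusted p of 0.05 (Tsc22d3 and Sgk1), beside 2.37% of all genes, and 0 were higher, beside 2%. None passed the adjusted threshold, and their smallest adjusted p by edgeR's quasi-likelihood test was 0.813.

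Tsc22d3 (ENSMUSG00000031431, chromosome X, 140539528 to 140600659, minus strand) encodes GILZ, a leucine zipper protein that glucocorticoids induce in most cells and that restrains inflammatory transcription factors. Control libraries ran from 43.3 over a median of 62.5 to 77.7 CPM, and deltamethrin libraries from 40.7 over 53.5 to 59.1 CPM. All 18 deltamethrin libraries lay below the control median, a pattern that 9 of the 19529 genes showed (0.0461%), and 7 of the 13 control libraries lay above the highest deltamethrin library. The other 6 control libraries overlapped the deltamethrin range, and the SD was 10.1 CPM in control against 4.69 CPM in deltamethrin. The log2 fold change was -0.18 ± 0.07 (SE, unadjusted p = 0.0122, adjusted p = 0.813 by edgeR), and its p ranked 141 among all genes tested. Leaving out each library in turn gave -0.22 to -0.14, with an unadjusted p under 0.05 in 31 of 31 fits. Without scaling factors the value was -0.15 with an unadjusted p of 0.127.

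Fkbp5 (ENSMUSG00000024222, chromosome 17, 28399094 to 28517527, minus strand) encodes a co-chaperone that lowers the receptor's affinity for hormone and so closes a feedback loop. It ranged from 17.6 over a median of 24.9 to 30.01 CPM in control and from 16.7 over 23.4 to 28.3 CPM in deltamethrin libraries. The groups overlapped almost fully, although 16 of 18 deltamethrin libraries lay below the control median, as for 1.26% of all genes, and 2 control libraries lay above the highest deltamethrin library. The log2 fold change was -0.11 ± 0.06 (unadjusted p = 0.0989). Control replicate 2 and deltamethrin replicate 4 were the lowest of their groups, and deltamethrin replicate 7 was the highest of its group. Without control replicate 2 the value was -0.14 (unadjusted p = 0.0179), and without deltamethrin replicate 7 it was -0.12 (unadjusted p = 0.0465).

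Tsc22d3 and Fkbp5 followed the clock genes across libraries. The clock score of a library was the mean log2 CPM of 11 listed clock genes driven by E-box or D-box, without Per1, less that of 6 clock genes of broadly opposite phase. The control libraries averaged 1.23 ± 0.206 (SD, n = 13), and the deltamethrin libraries averaged 1.05 ± 0.135 (SD, n = 18). Tsc22d3 correlated with it at r = 0.746 (permutation p = 1e-05, the smallest that 100000 permutations give, adjusted 0.000133) and rho = 0.696 (p = 3e-05, adjusted 0.0006). The r was 0.715 without the 2 libraries farthest from the median score, and 0.215% of the 19529 genes tested correlated at least as strongly. Within control it was 0.809 (adjusted permutation p = 0.0102) and within deltamethrin 0.453 (adjusted permutation p = 0.233). For Fkbp5 r was 0.665 (permutation p = 4e-05, adjusted 0.0004), rho was 0.639 (p = 0.00015, adjusted 0.002), and r was 0.640 with the 2 farthest libraries left out. Its r was 0.854 within control and 0.322 within deltamethrin (adjusted permutation p = 0.598), and 2.23% of genes correlated at least as strongly. Within control, r was also high for Zbtb16 (0.738), Errfi1 (0.736), Plin4 (0.731) and Cdkn1a (0.705), with adjusted permutation p of 0.0188 to 0.0236. Within deltamethrin their r ran from -0.094 to 0.291, and over all 31 libraries from 0.296 to 0.386, without an adjusted call for r. Over those 31 libraries, 27.8% to 41.4% of the 19529 genes correlated with the score at least as strongly as these genes. Control replicates 2 and 7 had the lowest control scores (0.765 and 0.920) and the highest mitochondrial rRNA shares (40.2% and 27.4%). They also held the 2 lowest control values of Tsc22d3, Zbtb16 and Cdkn1a. The r values within control were not computed without them. By rho, Plin4 (0.476) and Errfi1 (0.483) were called over all libraries (adjusted 0.0376 each). Sgk1 and Sult1a1 had r of 0.296 and 0.141 within control, not called.

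**Figure D2:**
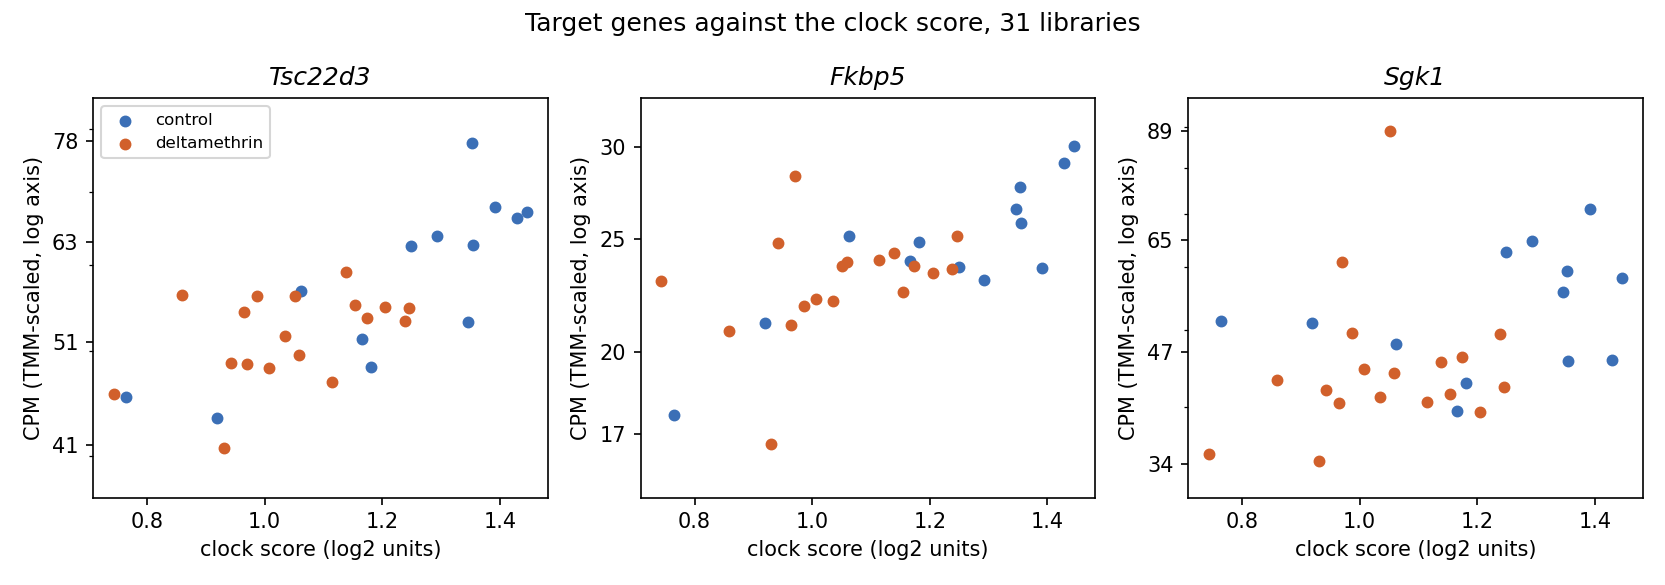
Level of Tsc22d3, Fkbp5 and Sgk1 (TMM-scaled CPM, log axis) against the clock score (log2 units) in 31 libraries; each point is 1 library. Control libraries reach higher scores, with a highest of 1.45 against 1.246 in deltamethrin, and Tsc22d3 and Fkbp5 climb along the score (r = 0.746 and 0.665).

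With the clock score in the model, the difference between groups in Tsc22d3 was -0.029 ± 0.064 (log2, unadjusted p = 0.651) and in Fkbp5 0.016 ± 0.062 (unadjusted p = 0.796). For Sgk1 it was -0.15 ± 0.12 (unadjusted p = 0.226). In the same model Cdkn1a was higher in deltamethrin by 0.33 ± 0.14 (unadjusted p = 0.0226). The score includes the gene with the smallest unadjusted p of all genes tested (2.26e-05 by edgeR). Its gene lists were chosen with earlier results of these data known. Smaller differences with the score in the model may follow in part from that choice. Since the mean score was lower in deltamethrin libraries, exposure and score cannot be fully told apart in that model, and the part of the clock in these differences was not tested. Nr3c2 ran the other way, with r of -0.492 against the score (permutation p = 0.00501, adjusted 0.0223; rho = -0.443, p = 0.0131, adjusted 0.057), -0.704 within control and -0.403 within deltamethrin. That call was lost with the 2 farthest libraries left out (r = -0.368, adjusted permutation p = 0.147) and without scaling factors (r = -0.149, adjusted permutation p = 0.567). Of the 19529 genes tested, 15.3% correlated with the score at least as strongly. Nr3c2 and Tsc22d3 correlated negatively (r = -0.568, permutation p = 0.00112, adjusted 0.00771; rho = -0.552, p = 0.00172, adjusted 0.0193; -0.508 without the 2 farthest libraries), at -0.660 within control and -0.612 within deltamethrin. Without scaling factors that r was 0.142, so its sign rests on the scaling.

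Sgk1 (ENSMUSG00000019970, chromosome 10, 21882184 to 21999903, plus strand) encodes a kinase induced by both receptors that acts on ion channels and transporters. Control libraries ran from 39.6 over a median of 51.4 to 71.1 CPM. Deltamethrin libraries ran from 34.2 over 42.9 to 89.1 CPM. Of 18 deltamethrin libraries, 16 lay below the control median, yet the highest library of all, replicate 5, was also in that group. The second highest deltamethrin library, replicate 7, had 60.9 CPM. The log2 fold change was -0.22 ± 0.10 (SE, unadjusted p = 0.0453, adjusted p = 0.813 by edgeR). Single libraries decided on which side of an unadjusted p of 0.05 the gene fell, with 11 of 31 leave-one-out fits under it. Without deltamethrin replicate 5 the value was -0.29 (unadjusted p = 0.000791), and without control replicate 10 it was -0.18 (unadjusted p = 0.100).

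Errfi1 (ENSMUSG00000028967, chromosome 4, 150853919 to 150868892, plus strand) encodes a feedback inhibitor of the EGF receptor. It ranged from 18.6 over a median of 21.7 to 26.2 CPM in control and from 17.9 over 20.6 to 39.5 CPM in deltamethrin libraries. Replicate 5 stood apart from the other 17 deltamethrin libraries, of which the highest had 22.2 CPM. The log2 fold change was -0.033 ± 0.082 (unadjusted p = 0.686), and without that library it was -0.10 (unadjusted p = 0.0484). Cdkn1a (ENSMUSG00000023067, chromosome 17, 29090976 to 29100727, plus strand) encodes p21, an inhibitor of cyclin-dependent kinases. Its lowest, median and highest values were 4.92, 7.64 and 15.6 CPM in control and 6.10, 8.42 and 15.5 CPM in deltamethrin libraries. The top library of each group, control replicate 10 and deltamethrin replicate 5, lay well above the next highest values of 9.98 and 10.3 CPM. The log2 fold change was 0.082 ± 0.13 (unadjusted p = 0.523), the only positive value among the 8 targets.

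Those 2 libraries also had the highest immediate early score, the mean log2 CPM of 20 listed genes such as Fos and Egr1 that neuronal activity induces within minutes. Their scores were 5.38 in control replicate 10 and 5.47 in deltamethrin replicate 5, and the other 29 libraries ranged from 3.58 to 4.74. Errfi1 correlated with the score at r = 0.736 (permutation p = 1e-05, adjusted 0.000133) and rho = 0.439 (p = 0.0144, adjusted 0.057). Of the 19529 genes tested, 0.154% correlated at least as strongly. For Cdkn1a r was 0.639 (permutation p = 0.00017, adjusted 0.00136; rho = 0.353, p = 0.0509, adjusted 0.126), and for Sgk1 it was 0.605 (permutation p = 0.00056, adjusted 0.00373; rho = 0.347, p = 0.0561, adjusted 0.126). Without the 2 libraries farthest from the median score these r values were 0.421, 0.272 and 0.235, with adjusted permutation p-values of 0.0957, 0.312 and 0.406, so all of these relations lost their call and rest on those libraries. Fkbp5 and Zbtb16 did the opposite, with r of 0.363 and 0.323 over all 31 libraries (permutation p = 0.0481 and 0.0766, adjusted 0.107 and 0.146; rho = 0.473 and 0.432, p = 0.00752 and 0.0157, adjusted 0.0376 and 0.057). With the same 2 libraries left out their r was 0.557 and 0.497 (adjusted permutation p = 0.0146 and 0.0389). Within control it was 0.467 and 0.562, and within deltamethrin 0.148 and 0.083. Over all 31 libraries, 11.3% and 16.6% of the 19529 genes correlated with the score at least as strongly as Fkbp5 and Zbtb16. That share was 3.2% for Tsc22d3, 0.297% for Cdkn1a and 0.405% for Sgk1. Within control and deltamethrin r was 0.727 and 0.799 for Errfi1, 0.777 and 0.626 for Cdkn1a, and 0.351 and 0.750 for Sgk1. For these genes in that order, adjusted permutation p was 0.0203, 0.0188 and 0.345 within control and 0.173, 0.132 and 0.109 within deltamethrin. Each group held 1 of the 2 libraries with the highest scores, so the values within groups are not free of them. Tsc22d3 correlated with the score less strongly (r = 0.456, permutation p = 0.00992, adjusted 0.0397; rho = 0.328, p = 0.0713, adjusted 0.149), at 0.453 with the 2 farthest left out (adjusted permutation p = 0.0586, so the call was lost), 0.573 within control and 0.153 within deltamethrin.

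**Figure D3:**
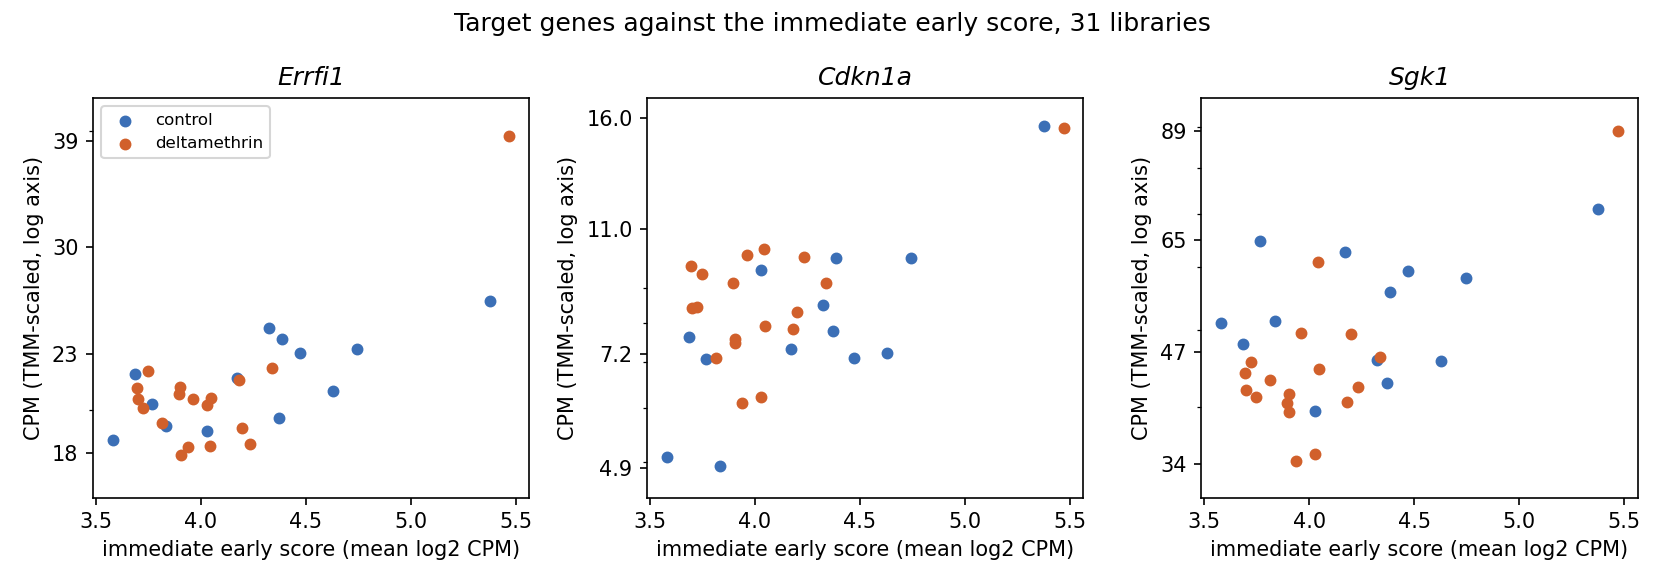
Level of Errfi1, Cdkn1a and Sgk1 (TMM-scaled CPM, log axis) against the immediate early score (mean log2 CPM of 20 genes) in 31 libraries; each point is 1 library. Control replicate 10 and deltamethrin replicate 5 lie at the right edge, at scores of 5.38 and 5.47, with the highest Cdkn1a and Sgk1 values.

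The mean score of control libraries was 4.26 ± 0.497 (SD, n = 13), and that of deltamethrin libraries was 4.05 ± 0.403 (SD, n = 18). With it in the model the log2 fold change was -0.15 for Sgk1 (unadjusted p = 0.0824), -0.14 for Tsc22d3 (unadjusted p = 0.0457) and 0.23 for Cdkn1a (unadjusted p = 0.0234). Leaving out both high libraries gave -0.25 for Sgk1 (unadjusted p = 0.00234) and -0.17 for Tsc22d3 (unadjusted p = 0.0214). Leaving out control replicate 2 and deltamethrin replicate 7 as well gave -0.29 for Sgk1 (unadjusted p = 0.000333), -0.20 for Tsc22d3 (0.0114), -0.17 for Fkbp5 (0.00661) and -0.47 for Plin4 (0.0150). The count at an unadjusted p of 0.05 was then 4 of the 10 genes, with adjusted p-values of 0.999 by edgeR. These libraries were picked with the values of the 10 genes in view, and they include the lowest control library for Fkbp5 and the highest deltamethrin libraries for Sgk1, Fkbp5 and Plin4, as well as the highest control library for Sgk1. Larger differences in Fkbp5 and Plin4 therefore follow in part from the choice of libraries, and the count of 4 lends the difference no support.

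Zbtb16 (ENSMUSG00000066687, chromosome 9, 48654297 to 48836222, minus strand) encodes PLZF, a zinc finger repressor that is strongly induced by glucocorticoids in many cells. It ranged from 22.3 over a median of 35.6 to 46.6 CPM in control and from 18.9 over 32.2 to 48.7 CPM in deltamethrin libraries. The groups covered the same range, with a log2 fold change of -0.064 ± 0.11 (unadjusted p = 0.561). Its levels instead tracked the mitochondrial rRNA share, with r of -0.781 and rho of -0.802 (permutation p = 1e-05 for each, adjusted 0.000133 and 0.0004). The r was -0.728 with the 2 farthest libraries left out, -0.780 within control and -0.815 within deltamethrin. Of the 19529 genes tested, 14.5% correlated with that share at least as strongly.

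Plin4 (ENSMUSG00000002831, chromosome 17, 56100591 to 56109803, minus strand) encodes a coat protein of lipid droplets. Its lowest, median and highest values were 2.10, 3.52 and 8.003 CPM in control and 1.54, 3.20 and 12.5 CPM in deltamethrin libraries. The highest value, in deltamethrin replicate 7, was far above the next in that group, 4.73 CPM, and 6 control libraries also exceeded 4.73 CPM. The log2 fold change was -0.23 ± 0.23 (unadjusted p = 0.319), and without that library it was -0.43 (unadjusted p = 0.0193). The same library had the highest deltamethrin values of Fkbp5 (28.3 CPM), Zbtb16 (48.7 CPM) and Sult1a1 (6.41 CPM). Plin4 correlated with the mitochondrial rRNA share at r = -0.499 (permutation p = 0.00455, adjusted 0.0223) and rho = -0.527 (p = 0.00282, adjusted 0.0226), with r of -0.461 with the 2 farthest left out (adjusted permutation p = 0.0586, so the call was lost), -0.432 within control and -0.621 within deltamethrin. Fkbp5 did so at r = -0.559 (permutation p = 0.00109, adjusted 0.00623) and rho = -0.569 (p = 0.0009, adjusted 0.009), with r of -0.403 without the 2 farthest libraries (adjusted permutation p = 0.103), -0.719 within control and -0.467 within deltamethrin. Of all genes, 45.2% and 39.0% correlated with the share at least as strongly as Plin4 and Fkbp5.

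Sult1a1 (ENSMUSG00000030711, chromosome 7, 126672865 to 126676432, minus strand) encodes a sulfotransferase that conjugates phenols. It ranged from 2.36 over a median of 3.77 to 4.83 CPM in control and from 2.72 over 3.30 to 6.41 CPM in deltamethrin libraries. The groups overlapped, and the log2 fold change was -0.034 ± 0.11 (unadjusted p = 0.768). Both low genes share their locus with a protein-coding gene on the opposite strand, Plin4 with Hdgfl2 (median of 1320 counts) and Sult1a1 with Sgf29 (216 counts). Reads of the 2 partners cannot be told apart if the counting ignored strand, so these values are uncertain.

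**Figure D4:**
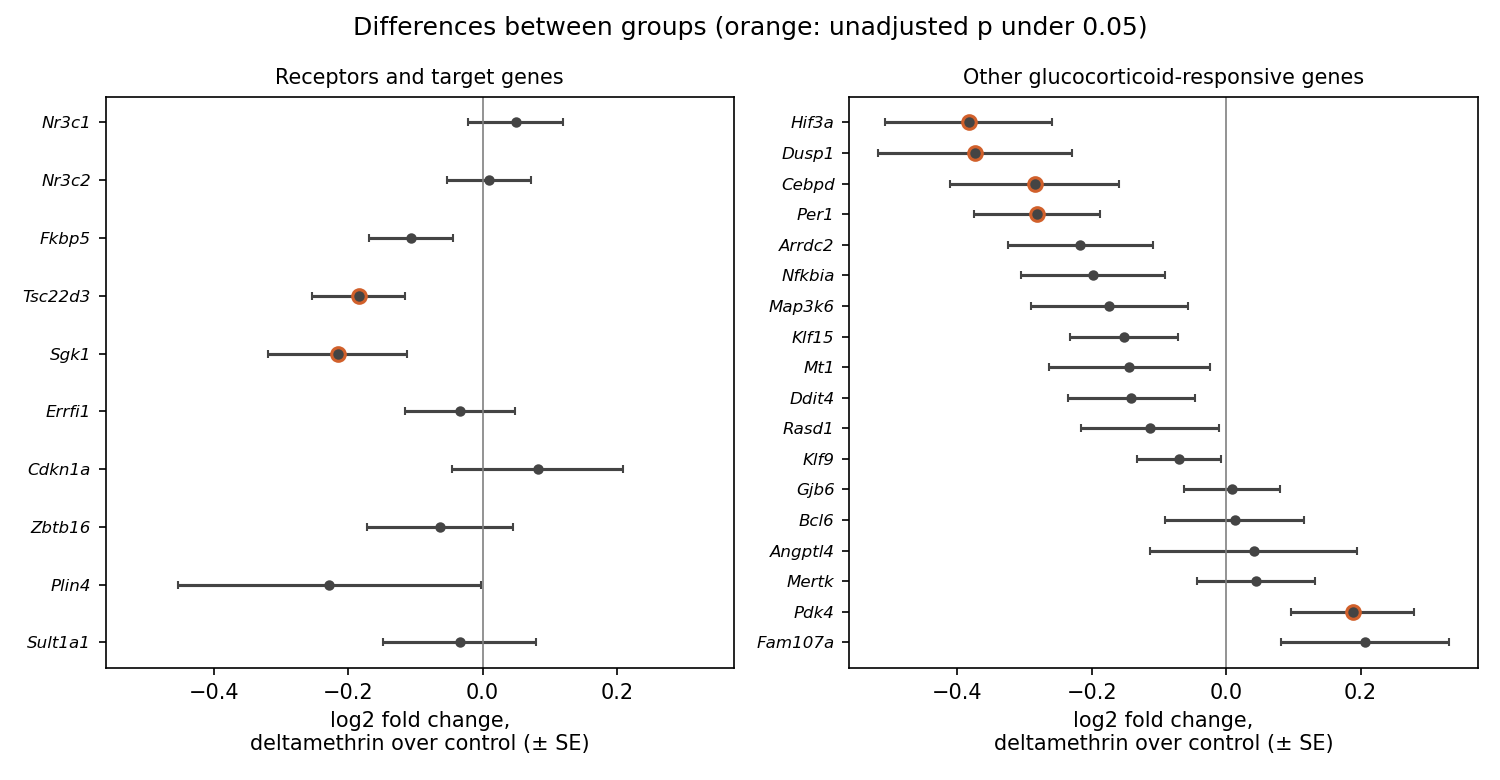
Log2 fold change, deltamethrin over control, ± SE for the 10 genes (left) and for 18 other glucocorticoid-responsive genes (right), from the fit over 13 control and 18 deltamethrin libraries. Orange rings mark an unadjusted p under 0.05, which are Tsc22d3 and Sgk1 on the left and 5 genes on the right.

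Other genes of the pathway were read from lists of known glucocorticoid-responsive genes, chaperones, coregulators, steroid enzymes and stress hormones. Of 20 other responsive genes, 18 passed the filter on low counts. Mt2 (2 to 15 counts per library) and Lcn2 (0 to 42) did not. Of the 18, 4 were lower and 1 was higher at an unadjusted p of 0.05, beside 2.37% and 2% of all genes. A negative log2 fold change was seen in 12, beside 49.5% of all genes, and the median was -0.14, beside 0.0014. Hif3a, a hypoxia-inducible factor subunit, averaged 3.51 ± 0.927 CPM (SD, n = 13) in control libraries against 2.70 ± 0.639 CPM (SD, n = 18) after deltamethrin, a log2 fold change of -0.38 ± 0.12 (unadjusted p = 0.00409). Per1 averaged 67.2 ± 14.4 CPM and 55.3 ± 9.81 CPM (-0.28 ± 0.09, unadjusted p = 0.00494). Dusp1, a phosphatase that switches off MAP kinases, averaged 26.1 ± 8.68 CPM and 20.1 ± 5.62 CPM (-0.37 ± 0.14, unadjusted p = 0.0139). Each had an adjusted p of 0.813 by edgeR, and 17, 15 and 16 of 18 deltamethrin libraries lay below their control medians. Per1 is also a clock gene, and Dusp1 is also induced by neuronal activity. The other lower gene was Cebpd (-0.28 ± 0.13, unadjusted p = 0.0294) and the higher one was Pdk4, a brake on pyruvate use (0.19 ± 0.09, unadjusted p = 0.0468), both named after their values were seen.

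For 12 receptor chaperones, 10 coregulators, 7 tested steroid enzymes and exporters and 8 tested stress hormones and receptors, 0 genes had an unadjusted p under 0.05 in edgeR's quasi-likelihood test, beside 4.37% of all genes. For lists this short that count is near the share of all genes. Their median log2 fold changes were 0.039, 0.065, -0.040 and 0.086. By comparison, 5 of 12 clock genes driven by E-box or D-box were lower at an unadjusted p of 0.05, and 2 of 20 immediate early genes, beside 2.37% of all genes. Among markers of other cells, 3 of 11 choroid plexus genes were lower, beside the same 2.37%, and 11 of 11 had a negative log2 fold change, beside 49.5%. Their summed level ran from 274 to 1321 CPM in control and from 253 to 737 CPM in deltamethrin libraries. With the choroid plexus score in the model, Tsc22d3 was at -0.20 (unadjusted p = 0.00623) and Sgk1 at -0.20 (unadjusted p = 0.0672).

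Among the 45 pairs of genes, 12 correlated with an adjusted permutation p under 0.05 for r. The share among pairs of all genes was not computed, so the count does not set these genes apart. The first set paired Errfi1 with Sgk1 (r = 0.645, permutation p = 0.00032, adjusted 0.0036; rho = 0.385, p = 0.0326, adjusted 0.105) and with Cdkn1a (r = 0.624, permutation p = 0.00021, adjusted 0.00315; rho = 0.358, p = 0.0478, adjusted 0.108). Without the 2 farthest libraries these r values were 0.274 and 0.300, so the relations rest on those libraries. The r values were 0.518 and 0.727 within control (adjusted permutation p = 0.203 and 0.0509), and 0.709 and 0.695 within deltamethrin (0.17 and 0.0675). Each group held 1 of those 2 libraries. Another set joined Plin4, Zbtb16 and Fkbp5. Zbtb16 and Plin4 correlated at r = 0.621 (permutation p = 0.00018, adjusted 0.00315) and rho = 0.671 (p = 7e-05, adjusted 0.00315), 0.546 with the 2 farthest libraries left out, 0.574 within control and 0.649 within deltamethrin. Fkbp5 and Zbtb16 correlated at r = 0.556 (permutation p = 0.0012, adjusted 0.00771) and rho = 0.581 (p = 0.00071, adjusted 0.0106), 0.571 with the 2 farthest left out, 0.723 within control and 0.397 within deltamethrin. Tsc22d3 and Sgk1, the pair with an unadjusted p under 0.05 between groups, correlated at r = 0.510 (permutation p = 0.00362, adjusted 0.0163) and rho = 0.475 (p = 0.00742, adjusted 0.0415). Leaving out the 2 farthest libraries gave an r of 0.526, and control and deltamethrin libraries taken alone gave 0.502 and 0.408. Other called pairs linked these sets. Fkbp5 correlated with Tsc22d3 (r = 0.581, adjusted permutation p = 0.00684), and Sgk1 with Plin4 (0.489, 0.0227) and with Cdkn1a (0.464, 0.0329). By rho their adjusted p-values were 0.105, 0.079 and 0.399. With the 2 farthest left out r was 0.430, 0.480 and 0.074 (adjusted permutation p = 0.0818, 0.0464 and 0.814). Fkbp5 and Plin4 were also called (r = 0.529, adjusted permutation p = 0.0137; rho = 0.491, adjusted 0.0415), as were Nr3c2 and Cdkn1a (r = -0.514, adjusted 0.0153). For Nr3c2 and Cdkn1a rho was -0.325 (adjusted permutation p = 0.148). Their r was -0.464 with the 2 farthest left out (adjusted permutation p = 0.0593), and 0.141 without scaling factors, so its sign rests on the scaling.

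**Figure D5:**
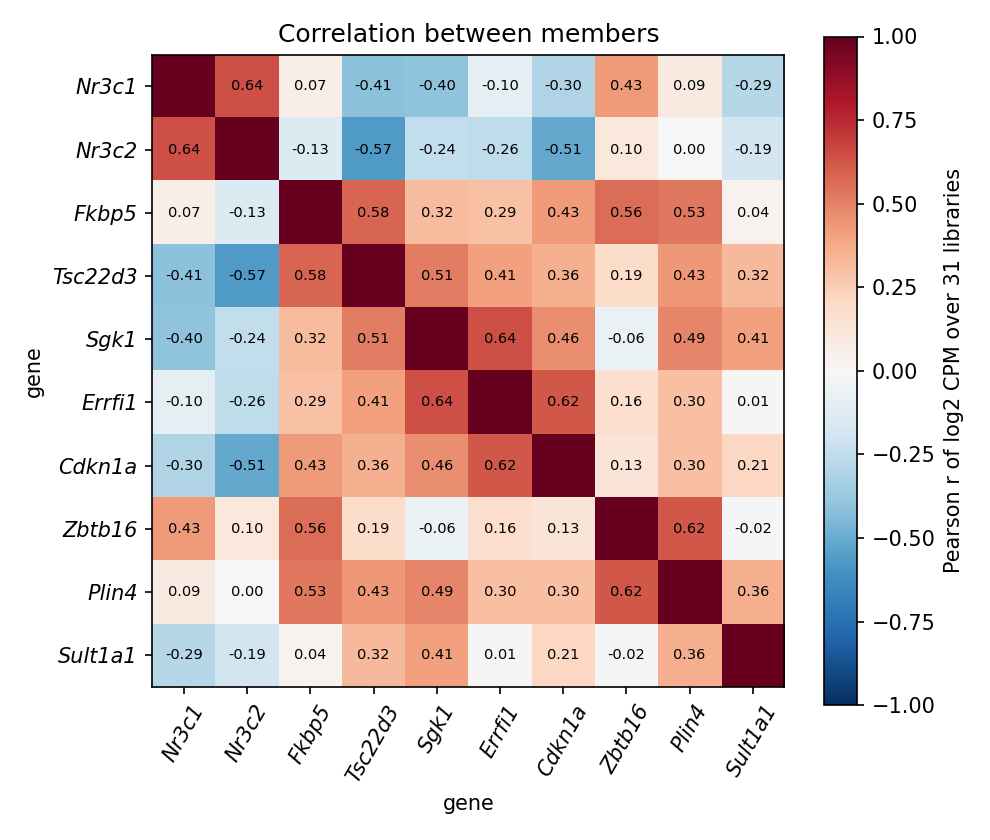
Pearson's r of log2 CPM over 31 libraries for each pair of the 10 genes; red is positive and blue is negative. The receptors correlate with each other (0.64), Nr3c2 and Tsc22d3 have a negative r (-0.57) that turns to 0.142 without scaling factors, and Fkbp5, Zbtb16 and Plin4 form a positive block (0.53 to 0.62).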

How the data were processed

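The deposited table holds raw read counts per gene for all 31 libraries, which the authors made from total RNA of brain tissue extracted with an RNeasy Plus Micro kit and sequenced on an Illumina NovaSeq, per the labels' protocols. Reads were handled with Trimmomatic, HISAT2, SAMtools and MultiQC against GRCm38, per the submitters' processing notes. The counting tool, its annotation and its use of strand are not given in the sources used here. Gene IDs were matched to GENCODE M21, which held 99.1% of them, for coordinates and exon lengths, with the M21 name in place of 242 older symbols.

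Counts were tested as deposited with edgeR 4.0.16 (glmQLFit with robust dispersion and glmQLFTest, TMM factors, R 4.3.3) in 1 fit of the 13 control and 18 deltamethrin libraries with no covariate. Genes were kept by filterByExpr (minimum count of 10, minimum total of 15), and p-values were adjusted by Benjamini-Hochberg over all 19529 genes. Each SE came from the F statistic (absolute log2 fold change over root F). CPM values used TMM factors, with a prior count of 2 on the log2 scale. Correlations used log2 CPM and two-sided permutation tests with 100000 resamples (scipy 1.17.1), adjusted over 40 and 45 pairs. No interval or test covers more than the spread between these libraries. The script was tested on simulated data with 50 changed genes per fold, where it called 96% of genes at a fold of 2, 78% at 1.5, 34% at 1.25 and 30% at 0.8.

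The members and lists were chosen with earlier results of these data known. All members are named, with at most 3 genes per other list by the smallest unadjusted p under 0.05, and the genes most alike to each member by Spearman's rho. Alternatives were other scaling factors, count filters and tools (DESeq2 1.42.0, limma voom 3.58.1), covariates, and each library left out. Leaving out 2 or 4 libraries that stood apart was chosen after seeing the data.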

Additional observations from a re-analysis of the deposited data

How the results depend on the processing

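At the smallest simulated rise, 34% of genes were called, and that rise was larger than the difference of any of the 10 genes. Whether depth or spread limited the calls was not tested. Over all alternatives, 460 fits of single members gave 0 adjusted p-values under 0.05, with a range of 0.493 to 0.999. The cause of each change below was not tested. Of 150 values of the 10 genes under alternatives other than leaving out 1 library, 139 kept their sign and 11 did not. With the clock score as a covariate, the log2 fold change was -0.0100 for Nr3c1, -0.085 for Nr3c2, 0.016 for Fkbp5, 0.058 for Zbtb16, 0.024 for Plin4 and 0.039 for Errfi1. With the immediate early score it was -0.020 for Nr3c2 and 0.034 for Errfi1. Without scaling factors, which moved the median of all genes to 0.043, it was 0.012 for Sult1a1 and 0.0099 for Errfi1. Without the 2 libraries of highest immediate early score it was -0.0044 for Nr3c2. Leaving out 1 library changed the sign in 5 of 310 values, with ranges of -0.015 to 0.034 for Nr3c2 and -0.097 to 0.0081 for Sult1a1. The count of the 10 genes at an unadjusted p under 0.05 was 0 without scaling factors, 1 with upper quartile factors, a mean count of at least 50, the clock score or the choroid plexus score, and 4 without the 4 libraries that stood apart. The genes counted also changed. With the clock score the 1 gene was Cdkn1a, higher in deltamethrin. With the immediate early score Cdkn1a was counted as higher and Sgk1 was not counted. It was 1 to 4 when 1 library was left out, and their median log2 fold change was then -0.095 to -0.028. The count among other responsive genes was 2 without scaling factors, 3 with the immediate early score, 0 with the clock score and 3 to 7 when 1 library was left out, with a median of -0.17 to -0.090. Over all genes tested, the unadjusted count was 1948 without a count filter, 1796 with the mitochondrial rRNA share, 543 with the immediate early score, 1875 with the clock score, 530 without 4 libraries and 526 to 1389 when 1 was left out, while the adjusted count was 0 throughout. Of 40 gene and measure correlations, 11 had an adjusted p under 0.05, against 6 without the 2 farthest libraries, 4 within deltamethrin and 19 without scaling factors. Of 45 gene pairs, 12 did, against 2 within control, 3 within deltamethrin and 32 without scaling factors, where r was 0.142 for Nr3c2 with Tsc22d3 and 0.141 for Nr3c2 with Cdkn1a. No paired analysis was possible because numbers given in accession order pair no libraries.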

Other observations

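The genes whose levels over the 31 libraries were most like each of the 10 came from 15718 genes with a mean of at least 1 CPM, by Spearman's rho. For Sgk1 they were Nfkbia (0.747), the inhibitor of NF-kappaB, the kinase gene Pim3 (0.742) and Cebpd (0.717), and Nfkbia and Cebpd are also on the list of responsive genes. For Plin4 they were Dzip1l and Tob2 (0.746 each) and Klf9 (0.717), another responsive gene. For Zbtb16 the closest were the clock gene Cry2 (0.877), Pitpnm2 (0.875) and Ubn1 (0.871). With the clock score Zbtb16 had an r of 0.343 over the 31 libraries (adjusted permutation p = 0.123). For Tsc22d3 the closest was Mettl7a1 (0.891), and for Fkbp5 Islr2 (0.856). Nr3c1 had the closest neighbours, Pgm2l1 (0.963), Rlim (0.960) and Mbnl1 (0.955), and Nr3c2 was closest to Nrp1 (0.851). Cdkn1a was most like Grasp (0.696), Errfi1 most like Cwc25 (0.727) and Sult1a1 most like Amh (0.642). The median rho over all genes was between -0.053 and 0.058 for each of the 10.

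Some lists of markers of other cells and regions also ran in 1 direction, without adjusted calls. Others were mixed, with 5 negative and 3 positive oligodendrocyte markers, 2 and 5 for endothelium and for neurons, and 2 and 4 for microglia. At an unadjusted p of 0.05, 1 endothelium and 1 neuron marker were higher and 1 microglia marker was lower. The cerebellar, astrocyte and blood lists held 0 such calls. All 9 cerebellar markers had a positive log2 fold change (median 0.26), as did all 7 astrocyte markers (median 0.13), and all 5 blood markers had a negative one (median -0.29), where 49.5% of all genes tested were negative. The summed astrocyte markers ran from 1434 to 2651 CPM in control and from 1403 to 4454 CPM in deltamethrin libraries, and the summed blood markers from 492 to 1668 CPM and from 380.0 to 1241 CPM. Their part in the levels of the 10 genes was not tested. Pituitary markers, whose cells hold high levels of hormone genes, summed to at most 3.704 CPM in control and 14.7 CPM in deltamethrin libraries.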
